A study of Mus musculus with 4 samples.

Results

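The Ifi200 family and Aim2 were followed in mouse bone marrow-derived macrophages as 7 genes, Ifi203, Ifi204, Ifi205, Mnda, Mndal, Pyhin1 and Aim2. The members were taken by symbol from the 17013 genes listed in the deposited values, and all 7 were found and tested. The macrophages came from wild-type (WT) mice and were grown on porous inserts above medium made from frozen and thawed abdominal fat. One group stood above the fat control medium (Con), the middle layer of that preparation, and the other above the high-fat-containing medium (Fat), its top layer. Both groups also received artificial necrotic bone fluid (aNBF), a freeze-thaw extract of bone that mimics the necrotic environment, and both were harvested after 24 h. There were 2 libraries per medium, with between 33573852 and 40785872 reads each when counts were summed over the listed genes. The labels do not say whether these came from separate cultures or animals, so the p-values below measure only the spread between these libraries, which may be technical.

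The Ifi200 genes encode HIN-200 or PYHIN proteins, most of which join an N-terminal pyrin domain, a surface for binding other pyrin domains, to a HIN domain that binds DNA. In the mouse they form a cluster on chromosome 1 and are known as interferon-inducible genes of macrophages and other immune cells. Aim2, at one end of the cluster, encodes the cytosolic DNA sensor that gathers the adaptor ASC and caspase-1 into an inflammasome, which matures IL-1β and IL-18. Several of the other proteins are nuclear and are known for effects on cell growth, differentiation and transcription.

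The family was lower in Fat, apart from Aim2. In the comparison of Fat with Con, 6 of the 7 members fell (limma adjusted p under 0.05), against 5.004% of the 12470 genes tested, and 0 rose, against 3.99%. In edgeR and DESeq2 also 0 members were higher, where 490 and 456 of the 12470 genes were. No member was higher at an unadjusted limma p under 0.05, where the share of all genes is not given here. With 7 members, 0 higher is near the background. Fold changes ranged from 1.80-fold lower for Mndal to 6.72-fold lower for Ifi205, whereas Aim2 had a mean of 42.9 ± 1.08 CPM (SD, n = 2) in Con and 39.3 ± 4.83 CPM in Fat. CPM is the number of reads scaled by library size, and 1 read was worth between 0.0244 and 0.0295 CPM. Ifi205 passed the filter on low values through its Con libraries alone, and without it 5 of 6 members fell. The members' median log2 fold change was -0.99, beside 0.01 over all genes tested.

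Near-identical sequence within the family limits how its reads can be told apart. Every stretch of 75 bases, the read length, was taken at steps of 5 bases from the protein-coding transcripts of each gene (GENCODE annotation of GRCm38) and searched for in all other genes with at most 2 mismatches. Mnda shared most, with 80.2% of its stretches found elsewhere, 46.6% of all its stretches in Ifi205, 38.8% in Ifi204 and 19.0% in Mndal. Ifi205 shared 51.6%, all of it also found in Mnda, and 45.1% of its stretches were in Mnda without a mismatch. For Ifi204 the share was 40.2%, mostly with Mnda (30.3%), and for Pyhin1 it was 44.1%, all of it with Ifi214, which was not among the symbols found in the deposited values. Mndal shared 28.6%, spread over Mnda, Ifi205, Ifi203 and Ifi204, and Ifi203 shared 18.3%, of which most was with the pseudogene Ifi203-ps (15.4%). Aim2 stood apart at 0.273%. Counted over all transcripts, not only protein-coding ones, the share was 18.1% for Ifi205 and 31.6% for Ifi204. How the authors' counting treated reads that match several genes is not given in the sources used here, so the division of reads among Mnda, Ifi205, Ifi204 and Mndal is uncertain, as is that between Pyhin1 and Ifi214.

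**Figure D1:**
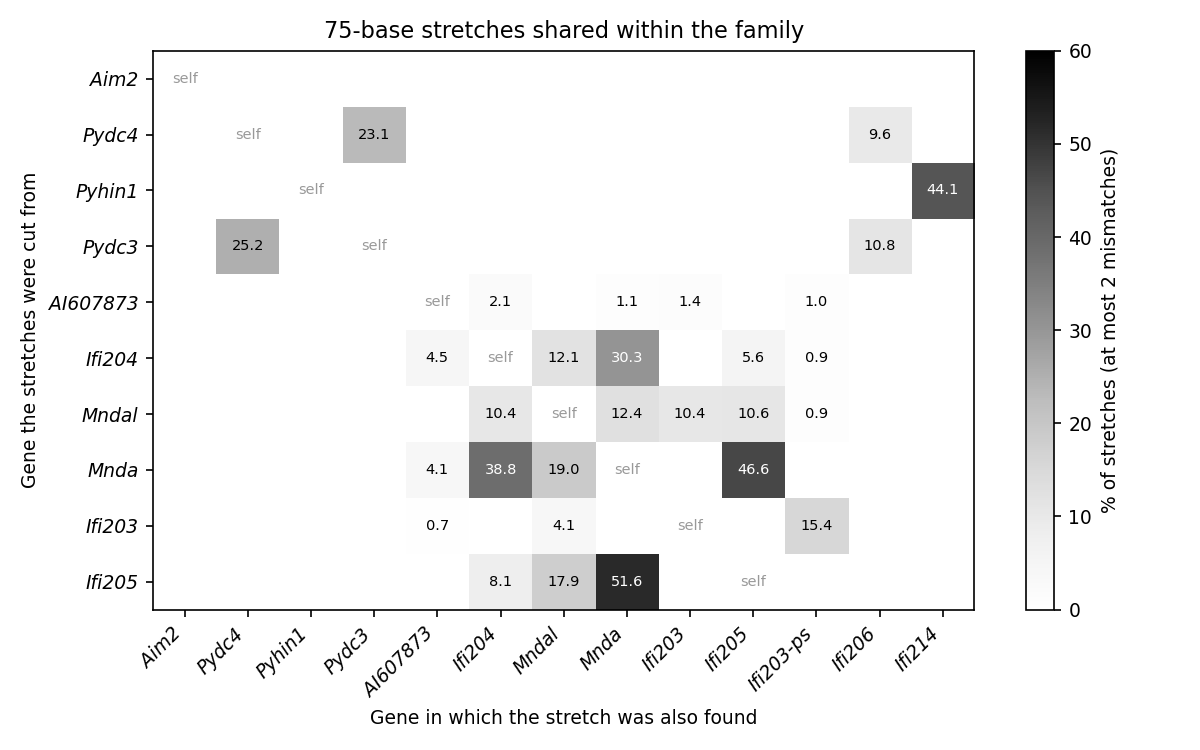
Percent of the 75-base stretches of each family gene (vertical axis, in chromosome order) that were also found in another gene (horizontal axis) with at most 2 mismatches. Blank cells are 0 or near it. The darkest cells join Ifi205 and Mnda (51.6% of the stretches of Ifi205, 46.6% of those of Mnda), and the row of Aim2 is blank.

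Of these stretches, 4 are shown because a read of this length cut from them could belong to more than one gene. They lie in coding exons of chromosome 1 of GRCm38 and are printed 5′ to 3′ along the transcript, with no letters in capitals since the whole run is identical in the genes named. The first is from exon 5 of Ifi205 (chr1:174017582-174017656, minus strand) and is the same in Mnda. The second, from exon 2 of Ifi204 (chr1:173761788-173761862, minus strand), is the same in Mnda. The third, from exon 7 of Mndal (chr1:173865469-173865543, minus strand), is the same in Ifi204 and Mnda. The last, from exon 2 of Pyhin1 (chr1:173637307-173637381, plus strand), is the same in Ifi214.
Ifi205 and Mnda: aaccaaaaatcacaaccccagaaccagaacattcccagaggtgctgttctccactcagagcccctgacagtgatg
Ifi204 and Mnda: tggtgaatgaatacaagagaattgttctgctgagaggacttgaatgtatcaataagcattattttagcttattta
Mndal, Ifi204 and Mnda: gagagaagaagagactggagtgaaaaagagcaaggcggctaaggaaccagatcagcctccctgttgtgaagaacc
Pyhin1 and Ifi214: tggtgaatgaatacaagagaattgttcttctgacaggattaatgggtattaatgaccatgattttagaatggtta

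The promoters of the members were searched for the letters of known interferon-response elements, since 6 of the 7 genes moved together. RefSeq promoter windows (GRCm38.p6), which run from 250 bases before to 50 bases after each start, were given for Ifi203, Ifi205, Mnda, Mndal, Pyhin1 and Aim2, and for AI607873, Pydc3 and Pydc4, 3 further genes of the cluster. The letters GAAA, any 2 bases and GAAA again, the core of the interferon-stimulated response element, were sought on both strands. They were in windows of Ifi203, Ifi205, Mnda, Mndal, AI607873, Pydc3 and Pydc4, beginning at -35, -134, -37, -36, -41, -58 and -73 bases from the start, while 3.44% of 32851 promoter windows hold them. Ifi203 and Mndal have 2 windows each, and the first window of Ifi203 held no match. On the other strand there were further matches at -54 in the second window of Mndal and at 23 in that of Ifi205. The windows of Pyhin1 and Aim2 held none, and TTCNNNGAA, the letters of the interferon-gamma-activated site, were in no window of the family, against 8.30% of all windows. A match describes letters and is not a measured binding site, and its part in the changes below was not tested.

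The matches are printed in windows of 60 bases, 5′ to 3′ on the gene's own strand, with the matching letters in capitals, because the same bases recur beside several starts. The windows lie at chr1:173942493-173942552 for Ifi203 (minus strand), chr1:173913049-173913108 for Mnda (minus strand), chr1:174031855-174031914 for Ifi205 (minus strand), chr1:173741816-173741875 for AI607873 (minus strand), chr1:173599311-173599370 for Pydc4 (minus strand) and chr1:173630755-173630814 for Pyhin1 (plus strand). For Pyhin1, the capitals mark the aligned letters of the stretch most like Pydc4 (41 of 60 bases), which has G1T against the motif, counting from 1 at its 5′ end. With 1 mismatch allowed, 35.4% of all promoter windows hold the motif.
Ifi203 and, identically, Mndal: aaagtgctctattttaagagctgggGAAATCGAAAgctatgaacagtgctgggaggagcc
Mnda: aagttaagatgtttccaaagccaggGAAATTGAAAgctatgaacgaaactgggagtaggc
Ifi205: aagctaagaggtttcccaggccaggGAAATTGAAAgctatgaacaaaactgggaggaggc
AI607873: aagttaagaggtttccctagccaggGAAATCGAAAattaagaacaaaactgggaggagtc
Pydc4 and, identically, Pydc3: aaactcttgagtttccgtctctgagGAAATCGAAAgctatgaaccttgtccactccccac
Pyhin1: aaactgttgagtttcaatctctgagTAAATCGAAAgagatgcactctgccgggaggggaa

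These windows were alike to different degrees. The Ifi205 and Mnda windows have 54 of 60 bases in common, and AI607873 has 52 in common with Ifi205 and 50 with Mnda. Ifi203 and Mndal are the same in all 60 bases, as are Pydc3 and Pydc4. The most similar 60 bases in the Aim2 window had 27 in common with Mndal.

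Ifi204 was the most abundant member. It encodes p204, a protein known both as a regulator of cell growth and differentiation and as a DNA sensor that acts through STING in macrophages. Its level was 293.8 and 239.1 CPM in Con replicates 1 and 2 and 169.7 and 120.5 CPM in Fat replicates 1 and 2. The groups did not overlap, and the lower Con library was 1.41-fold above the higher Fat library. The Con libraries differed from each other by 1.23-fold and the Fat libraries by 1.41-fold. Ifi204 fell by 0.89 on the log2 scale (standard error 0.16, limma adjusted p = 0.0172), which is 1.84-fold between the means.

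Pyhin1, a HIN-200 gene that RefSeq lists as Ifi209, was the next most abundant by reads. It was at 155.8 and 109.3 CPM in Con and 81.1 and 53.1 CPM in Fat. Again both Con libraries lay above both Fat libraries, but the gap between the groups, 1.35-fold, was smaller than the difference between the Con replicates (1.43-fold) or the Fat replicates (1.53-fold). It fell by 0.99 (standard error 0.21, limma adjusted p = 0.0308). Without Con replicate 1 the limma adjusted p was 0.0573, and without Fat replicate 2 it was 0.0528. It was also over 0.05 with TPM values (0.0737), reads scaled for gene length as well as library size, and with DESeq2 on the recovered reads (0.115).

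Mndal, named for its likeness to the myeloid nuclear differentiation antigen Mnda, was at 102.2 and 76.6 CPM in Con and 58.1 and 41.5 CPM in Fat. The groups did not overlap, with a gap of 1.32-fold that was slightly smaller than the difference within Con (1.34-fold) or within Fat (1.40-fold). Mndal fell by 0.85 on the log2 scale (standard error 0.17, limma adjusted p = 0.0266). As for Pyhin1, the limma adjusted p was over 0.05 with TPM values (0.0662), and so was that of DESeq2 (0.0817).

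Ifi203, whose product is a nuclear HIN-200 protein, was at 84.3 and 59.9 CPM in Con and 38.1 and 24.1 CPM in Fat. Every Con library was higher than every Fat library, with a gap of 1.57-fold, beside 1.41-fold within Con and 1.58-fold within Fat. Ifi203 fell by 1.23 on the log2 scale (standard error 0.22, limma adjusted p = 0.0178), 2.32-fold between the means. Of the members that fell, it was the only one with under 20% of its stretches from protein-coding transcripts in other genes. Counted over all transcripts, Ifi205 was under 20% as well (18.1%, beside 16.5% for Ifi203). In RefSeq the symbol Mndal is also listed among the synonyms of Ifi203, but the deposited values give the genes separately.

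Mnda takes its name from the myeloid nuclear differentiation antigen, and its symbol corresponds to Ifi211 in RefSeq. It was at 47.0 and 36.5 CPM in Con and 21.7 and 13.9 CPM in Fat, with a gap of 1.68-fold between the groups, which did not overlap. The change was -1.25 on the log2 scale (standard error 0.20, limma adjusted p = 0.0134). Since 80.2% of its stretches occur in other genes, this value may hold reads of Ifi204, Ifi205 or Mndal, and the reverse.

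Ifi205 was the least abundant member and had the largest fold change of the 7. Its protein is a HIN-200 protein known from myeloid differentiation. It was at 3.07 and 1.65 CPM in Con, from 104 and 62 reads, and at 0.482 and 0.220 CPM in Fat, from 18 and 9 reads. The groups were separated by 3.43-fold, more than the difference within Con (1.86-fold) or Fat (2.20-fold). Ifi205 fell by 2.45 on the log2(CPM + 0.1) scale, which understates the change of low genes (standard error 0.39, limma adjusted p = 0.0128). The size rests on the pseudocount, since it was -1.29 with a pseudocount of 1 CPM, where Mnda was at -1.21, and -2.75 in edgeR. Its 95% interval, -3.37 to -1.53, was the widest of the members and overlapped that of Mnda, -1.72 to -0.78.

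Aim2 was the exception. It was at 43.7 and 42.1 CPM in Con and 42.7 and 35.9 CPM in Fat. Fat replicate 1 lay between the Con libraries, so the groups overlapped. The change of -0.13 on the log2 scale (standard error 0.09, limma adjusted p = 0.422) had a 95% interval from -0.34 to 0.08, which leaves room for a fall of up to 0.34. The interval nearest to it among the other members, that of Mndal, ran from -1.26 to -0.44. With each library left out in turn, the log2 fold change of Aim2 ranged from -0.26 to -0.01.

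**Figure D2:**
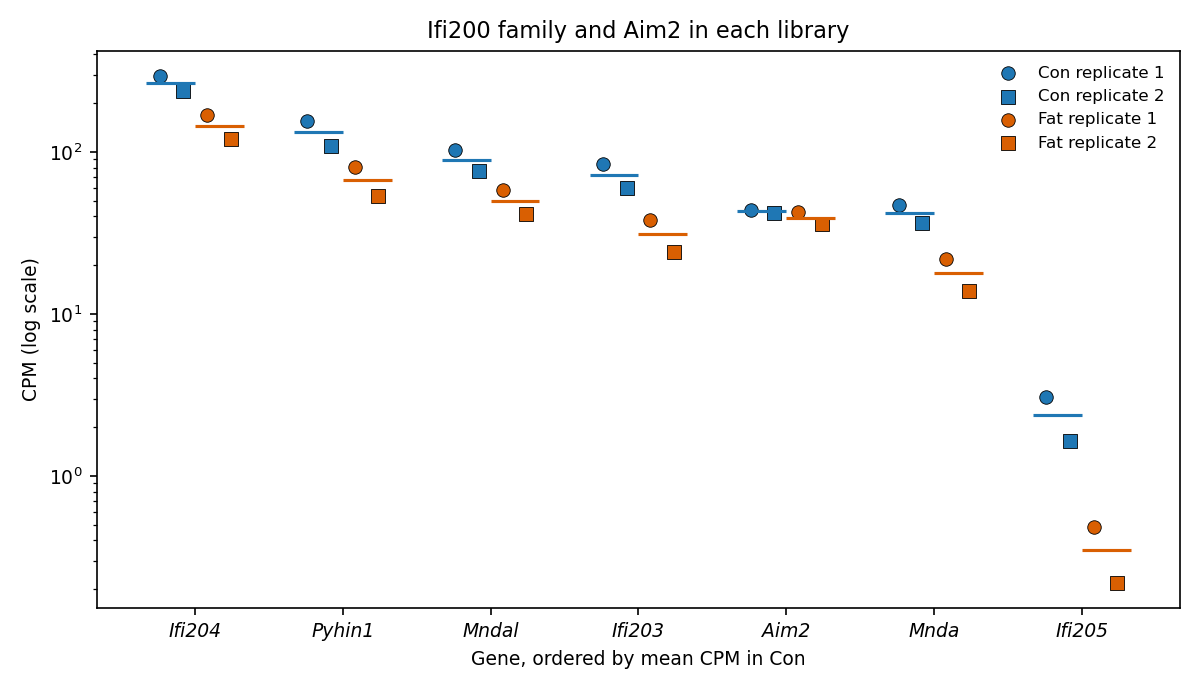
CPM (log scale) of the 7 members in each library, Con in blue and Fat in orange, with circles for replicate 1, squares for replicate 2 and lines at the group means. Replicate 1 is the higher library in each group for all 7 genes, and both Fat libraries lie below both Con libraries for all but Aim2.

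The order of the libraries was the same for the 6 members that fell, with Con replicate 1 highest, then Con replicate 2, Fat replicate 1 and Fat replicate 2. The share of all genes with this exact order is not given here. Members with shared sequence may also share reads, so these may not be 6 separate observations. Both Fat libraries lay below both Con libraries for 6 of 7 members and for 26.2% of the genes tested. In these bulk samples, fewer cells that express a gene and less RNA per cell cannot be told apart. The call also depended on how the spread was estimated from 2 libraries per group. In edgeR's quasi-likelihood test on the recovered reads, the same number, 6 of 7, fell, against 5.20% of all genes. With TPM values 4 of 7 fell, against 2.94%, and in DESeq2 4 of 7, against 4.77%, without Mndal and Pyhin1 in either case. When limma drew no trend of the spread with expression, 0 of 7 passed, against 0.0962% of all genes lower. Among the 6 that had fallen, the limma adjusted p then ran from 0.0953 for Ifi205 to 0.168 for Pyhin1. At an unadjusted limma p under 0.05, 6 were lower there, but the share of all genes at that threshold is not given here.

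**Figure D3:**
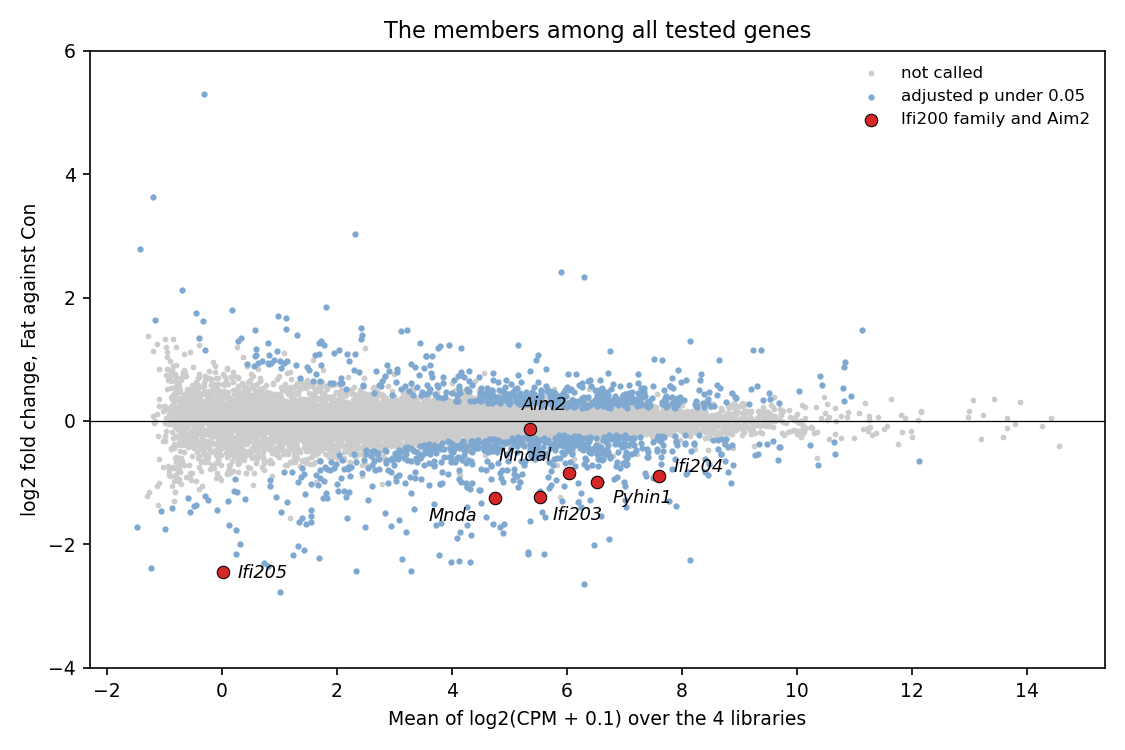
Log2 fold change (Fat against Con) against the mean of log2(CPM + 0.1) for the 12470 genes tested, with genes at a limma adjusted p under 0.05 in blue and the 7 members in red. Of the members, 6 lie below the bulk of genes with similar expression, while Aim2, at -0.13, lies within it.

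A sum over members does not depend on how reads shared only among them were divided, if each read was counted once. It can still change with reads shared with genes outside it, as for Pyhin1 with Ifi214 (44.1% of stretches) and Ifi203 with Ifi203-ps (15.4%). The 7 members together were at 729.8 and 565.3 CPM in Con and 411.9 and 289.1 CPM in Fat, a mean of 647.5 ± 116.4 CPM (SD, n = 2) against 350.5 ± 86.8 CPM. The fold was 1.85, and the groups did not overlap. Permuting the 4 libraries exactly gave a two-sided p = 0.333, the smallest that 2 against 2 can give. Ifi204, Ifi205, Mnda and Mndal, which share stretches with each other, summed to 446.1 and 353.9 CPM in Con and 250.0 and 176.1 CPM in Fat, 1.88-fold. Mndal also shares 10.4% of its stretches with Ifi203, which is outside this sum.

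Levels were compared between genes as TPM, which is scaled for transcript length. Ifi204 held 44.2% of the summed TPM of the 7 members in Con and 44.2% in Fat. Mndal followed at 17.7% and 18.2%, and Pyhin1 at 14.3% and 13.3%. Mnda went from 9.59% to 7.46%, Ifi203 from 7.18% to 5.68% and Ifi205 from 0.543% to 0.146%, while Aim2 went from 6.50% to 11.0%. By mean TPM the order in Con was Ifi204 (251.8 ± 40.0, SD, n = 2), Mndal (101.7 ± 22.0), Pyhin1 (82.3 ± 21.5), Mnda (54.9 ± 10.4), Ifi203 (41.3 ± 10.4), Aim2 (36.7 ± 1.43) and Ifi205 (3.18 ± 1.39). Over the Con libraries the values of Mndal overlapped with those of Pyhin1, of Mnda with Ifi203 and of Ifi203 with Aim2. Within each Con library, however, Mndal was above Pyhin1 and Mnda above Ifi203. Ifi203 was above Aim2 in Con replicate 1 (48.7 against 37.7 TPM) and below it in Con replicate 2 (33.9 against 35.6 TPM). Pyhin1 lay above Mnda in both, and Ifi204 and Ifi205 stood clear at the ends. In Fat the order differed for Aim2 alone, which at 34.3 ± 4.24 TPM came above Mnda (23.9 ± 7.49) and Ifi203 (18.2 ± 5.80).

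Ifi205 was also set against the other 6 members within each library, a ratio that scaling by library size does not change. Its CPM was 0.422% and 0.293% of theirs in Con and 0.117% and 0.0760% in Fat, so the ratio was lower in both Fat libraries. Aim2 was 6.36% and 8.06% of the other 6 in Con and 11.6% and 14.2% in Fat. The ratios of Ifi203 (13.1% and 11.9% against 10.2% and 9.09%), Mnda (6.88% and 6.91% against 5.57% and 5.03%) and Mndal (16.3% and 15.7% against 16.4% and 16.8%) did not overlap between Con and Fat either. Those of Ifi204, at 67.4% and 73.3% in Con and 70.1% and 71.5% in Fat, and of Pyhin1, at 27.1% and 24.0% and at 24.5% and 22.5%, overlapped. For each ratio that did not overlap, permuting the 4 libraries exactly gave a two-sided p = 0.333, the smallest it can give. These ratios are a description, and Ifi205 had passed the filter through Con alone. Ifi205 was chosen for this because it had the largest fold change in an earlier analysis, so its lower ratio in Fat is no separate support. They also depend on how shared reads were divided, as between Ifi205 and Mnda.

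Further genes of the family were sought by 21 symbols, and 4 were found. Pydc3, listed in RefSeq as Ifi208 and named as a pyrin-domain-containing gene, was at 3.27 and 1.73 CPM in Con and 0.777 and 0.341 CPM in Fat. It fell by 1.998 on the log2 scale (standard error 0.40, limma adjusted p = 0.0255). Pydc4, listed as Ifi213, was at 7.73 and 3.87 CPM in Con and 1.63 and 0.878 CPM in Fat, and fell by 2.10 (standard error 0.37, limma adjusted p = 0.0164). In both genes each Con library was above each Fat library. For Pydc3 only Fat replicate 1 reached the 0.5 CPM of the filter, so its Fat libraries alone would not have passed it. Neither gene was tested with a mean of at least 5 CPM. Pydc3 no longer passed in limma without Con replicate 1 (adjusted p = 0.0863), without Fat replicate 2 (0.0504) or with TPM values (0.0506). With a pseudocount of 1 CPM the log2 fold changes were -1.15 for Pydc3 and -1.55 for Pydc4. They share sequence, with 25.2% of the stretches of Pydc3 found in Pydc4.

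AI607873, a HIN-200 gene listed as Ifi207, was at 226.6 and 204.2 CPM in Con and 190.5 and 161.8 CPM in Fat. The groups did not overlap, but the log2 fold change of -0.29 (standard error 0.09) did not pass the test (limma adjusted p = 0.0888), with a 95% interval from -0.50 to -0.09. In DESeq2 it passed (adjusted p = 0.0385), and in limma also without Con replicate 2 (adjusted p = 0.0403) or Fat replicate 1 (0.0218). It shared 5.32% of its stretches with other genes, the lowest share after Aim2 among these genes. BC094916 had 16 and 16 reads in Con and 9 and 3 reads in Fat, too few to be tested, and it matched no RefSeq entry used here.

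**Figure D4:**
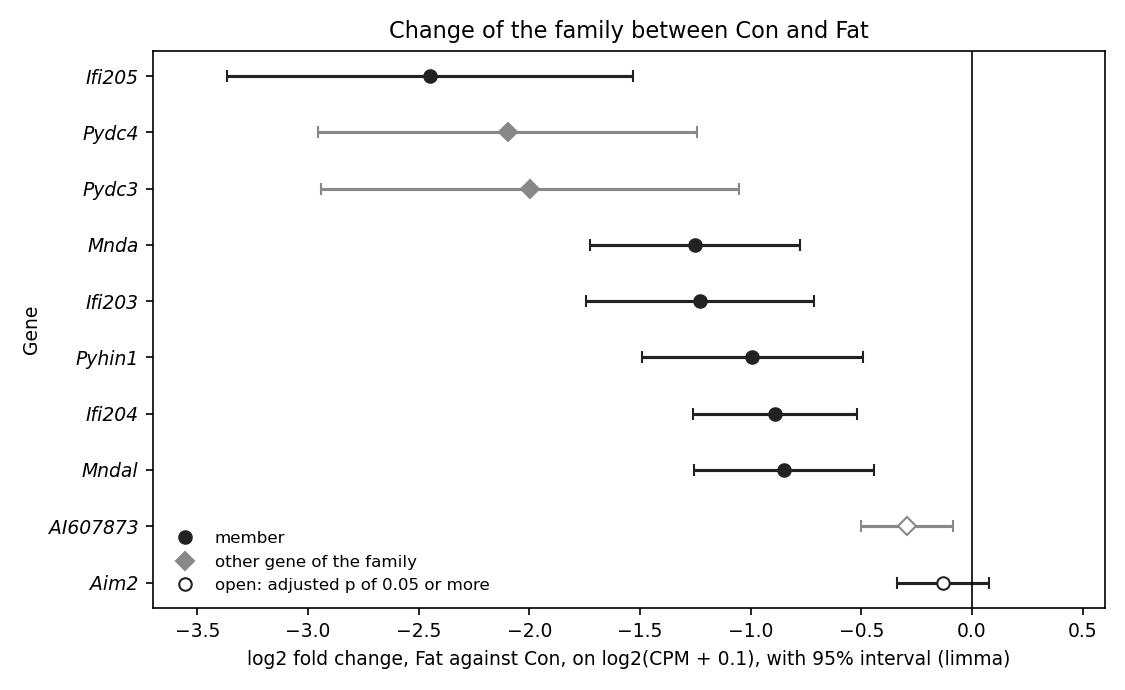
Log2 fold change of Fat against Con, on log2(CPM + 0.1), with its 95% interval from limma, for the 7 members (circles) and 3 other tested genes of the family (diamonds). Open symbols did not pass the test. AI607873 and Aim2, at -0.29 and -0.13, lie nearest to 0, and Ifi205, Pydc4 and Pydc3, the genes with the fewest reads, lie furthest from it.

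The order of the genes along chromosome 1 was Aim2, Pydc4, Pyhin1, Pydc3, AI607873, Ifi204, Mndal, Mnda, Ifi203 and Ifi205. These were 10 of the 13 protein-coding genes from Aim2 to Ifi205 in the RefSeq annotation of GRCm38, which differs from the build named in the submitters' processing notes (GRCm39) and was used for neighbour order only. The 2 tested genes that did not pass in limma lay apart, Aim2 at the end and AI607873 between Pydc3 and Ifi204, both of which fell.

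The genes whose profile was most like that of the members were Gda, H2-T24 and Ifitm3. Likeness was measured as the root mean square distance, over the 4 libraries, between a gene's centred log2(CPM + 0.1) values and the mean profile of the 7 members, and it was 0.0356, 0.0382 and 0.0598. Gda, the gene of guanine deaminase, was at 133.9 and 97.5 CPM in Con and 60.8 and 42.5 CPM in Fat. The same distance was 0.0689 for Pyhin1, 0.0689 for Ifi203 and 0.0772 for Mnda, and 0.521 for Aim2 and 0.693 for Ifi205, the members least like the mean. With 4 libraries this is a description.

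The partners of Aim2 in the inflammasome fell in part, although Aim2 itself did not pass the test. Of 14 genes listed for this pathway 10 fell and 0 rose (limma), with a median log2 fold change of -0.56. Over all genes tested that median was 0.01, and 5.004% fell and 3.99% rose in limma. In edgeR and in DESeq2 11 fell and 0 rose, against 5.20% and 4.77% of all genes lower. At an unadjusted limma p under 0.05 the counts were also 11 and 0, where the share of all genes is not given here. Beside parts of the inflammasome, the list holds Irf1, Irf2, Gbp2, Gbp3, Gbp5 and Gm12250. Pycard, the gene of the adaptor ASC, was at 137.7 and 149.3 CPM in Con and 111.3 and 102.7 CPM in Fat, and fell by 0.42 (limma adjusted p = 0.0119). Casp1, the protease of the complex, was at 173.8 and 172.6 CPM in Con and 134.4 and 116.6 CPM in Fat, and fell by 0.47 (limma adjusted p = 0.0119). For both genes the groups did not overlap.

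Of the cytokines that caspase-1 matures, Il1b passed the test and Il18 did not, and the difference between them was not tested. Il1b was at 20.02 and 13.6 CPM in Con and 6.94 and 5.29 CPM in Fat, and fell by 1.43 (limma adjusted p = 0.0076). Il18 was at 8.17 and 7.25 CPM in Con and 7.45 and 6.68 CPM in Fat, where the groups overlapped, and did not pass (log2 fold change -0.12, limma adjusted p = 0.573). Gsdmd, the gene of the pore-forming gasdermin D, was at 128.6 and 117.7 CPM in Con and 106.2 and 97.4 CPM in Fat, just outside the threshold (log2 fold change -0.27, limma adjusted p = 0.0507). The interferon-inducible GTPase genes Gbp2, Gbp5, Gbp3 and Gm12250, some of which are known to expose bacterial DNA to Aim2, fell most on this list, with log2 fold changes of -2.26, -2.15, -1.92 and -1.48 (limma adjusted p from 0.0043 to 0.0094).

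Of 20 further genes of DNA sensing, 6 fell in limma, against 5.004% of all genes, and 1 rose, against 3.99%, with a median log2 fold change of -0.14. In edgeR the counts were 6 and 1, and in DESeq2 5 and 1, beside 5.20% and 4.77% of all genes lower. Zbp1, a sensor of Z-form nucleic acid, was at 81.2 and 63.3 CPM in Con and 32.5 and 16.5 CPM in Fat, and fell by 1.63 (limma adjusted p = 0.0151). Tmem173, the gene of STING, was at 80.0 and 72.7 CPM in Con and 57.7 and 52.0 CPM in Fat, and fell by 0.48 (limma adjusted p = 0.0121). Trim30a, an interferon-inducible ubiquitin ligase, fell by 0.76 (limma adjusted p = 0.0235) and the DNA exonuclease gene Trex1 by 0.71 (limma adjusted p = 0.0188). Lrrfip1, a gene of a cytosolic nucleic acid sensor, rose by 0.36 (limma adjusted p = 0.0087). Mb21d1, the gene of the DNA sensor cGAS, did not pass the test (log2 fold change -0.20, limma adjusted p = 0.366).

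Interferon signalling, the pathway known to induce the Ifi200 genes, had 5 of 13 tested genes that fell in limma, against 5.004% of all genes, and 0 that rose, against 3.99%. In edgeR 5 fell and in DESeq2 3, against 5.20% and 4.77% of all genes lower, and 0 rose in either. At an unadjusted limma p under 0.05, 8 were lower and 0 higher, where the share of all genes is not given here. The median log2 fold change was -0.23. Usp18, Socs1 and Socs3, feedback inhibitors of the pathway, fell by 1.71, 1.02 and 0.60 on the log2 scale. Stat2 and Irf9, transcription factors of the type I response, did not pass (log2 fold changes of -0.54 and -0.23, limma adjusted p = 0.133 and 0.284). Ifnb1, the gene of interferon beta, had 1 read in each Con library and 0 in each Fat library, at or under the limit of 3 reads used for detection. Limits in reads cover counting error only.

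Growth and chromatin genes listed as nuclear partners, among them Trp53, Rb1 and Hmgb1, did not pass in limma in any of 8 cases (0 in edgeR and 0 in DESeq2, and 2 lower at an unadjusted limma p under 0.05). With 5.004% of all genes lower and 3.99% higher, 0 of 8 is near the background. Their median log2 fold change was -0.04.

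The label of macrophage was checked against its markers. Of 9 markers 8 were found and tested, Csf1r was between 1477 and 1852 CPM and Lyz2 between 20347 and 28720 CPM, and 2 of the 8, Fcgr1 (log2 fold change -0.88) and Mertk (-0.31), fell. Markers of other cell types were listed for the cells the culture or the fat could hold. No tested marker passed among 7 of neutrophils, 5 of B cells, 5 of T and NK cells, 3 of dendritic cells and 2 of endothelial cells, in limma, edgeR (0) or DESeq2 (0). Over all genes tested 5.004% were lower and 3.99% higher in limma, so 0 in lists this small is near the background. At an unadjusted limma p under 0.05, 3 of the neutrophil, 2 of the T and NK cell and 1 of the dendritic cell markers were lower. Of the B cell and endothelial markers 0 were. At that threshold 3 of the 8 macrophage and 3 of the 5 stromal markers were also lower. Of the 2 tested adipocyte markers 1 was lower and 1 higher, and the 1 tested mast cell and basophil marker was higher. The share of all genes at that unadjusted threshold is not given here. The 8 macrophage markers summed to 34891 and 32987 CPM in Con and 27609 and 26160 CPM in Fat, most of it Lyz2, and the 7 neutrophil markers to 378.0 and 333.9 CPM in Con and 322.9 and 323.0 CPM in Fat. The summed CPM of the 6 T and NK cell markers found was 7.70 and 6.21 in Con and 4.74 and 4.05 in Fat. Of the 5 stromal markers 1 fell in limma (Dcn), 1 in edgeR and 0 in DESeq2, beside 5.004%, 5.20% and 4.77% of all genes lower. The only tested mast cell and basophil marker, Mcpt8, rose in limma, edgeR and DESeq2. Of the adipocyte markers Adipoq and Lep were at 0 reads in Con and between 0.341 and 0.804 CPM in Fat, and Cidec rose. The 8 adipocyte markers summed to 189.4 and 208.6 CPM in Con and 184.1 and 178.0 CPM in Fat, most of it Fabp4, which did not pass. The part of these cell types in the changes of the family was not tested.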

How the data were processed

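RNA of the 4 libraries (polyA-selected, TruSeq Stranded mRNA kit) was sequenced by the authors as single reads of 75 bases. The authors deposited CPM values, reads scaled by library size and by factors of 0.990 to 1.01, and TPM values, which the authors also scaled for gene length. The aligner, counter and annotation, and how reads matching several genes or strands were counted, are not given in the sources used here, while the submitters' processing notes name GRCm39. The authors compared Fat with Con in edgeR.

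Reads could be recovered since CPM values came in steps of 1 read (100% of values within 0.01 reads), with totals of 33573852 to 40785872 reads. These totals are sums over genes and not sequencing depth. Some genes, such as Rpl26 and Gm15772, had the same mean and fold change, so a read may be counted in more than 1 gene. Genes that reached 0.5 CPM in 2 or more libraries, 12470 in all, were fitted in limma 3.58.1 (R 4.3.3). The values were log2(CPM + 0.1), eBayes used a mean-variance trend, and p-values were two-sided, adjusted by Benjamini-Hochberg over all tested genes and called at an adjusted p under 0.05. The test was checked on simulated data, and the outcome is not reported here. Alternatives were TPM values, a pseudocount of 1, other filters, median-ratio scaling, no trend, a replicate block, each library left out, and edgeR 4.0.16 and DESeq2 1.42.0 on the recovered reads. Stretches were aligned with BWA 0.7.19. Further steps used matplotlib 3.10.9, scipy 1.17.1 and pandas 2.3.3 in Python 3.11.15.

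The members and lists were chosen with earlier results of these data known. Named are all members, other family genes found, the 4 called genes with the largest change and any called in the opposite direction in each list (Aim2 inflammasome, DNA sensing, interferon signalling, nuclear partners, cell type markers), 5 inflammasome partners, and the 3 genes most like the members' mean profile. Mb21d1, Stat2, Irf9, Ifnb1, Trp53, Rb1, Hmgb1, Csf1r, Lyz2, Adipoq and Lep were named after their values were seen. For Mnda, Pyhin1, AI607873, Pydc3 and Pydc4, RefSeq entries were matched through synonyms. A further gene that this rule names is not reported here.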

Additional observations from a re-analysis of the deposited data

How the results depend on the processing

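Over 97 recomputed log2 fold changes of the 7 members, 0 changed direction, 85 kept their side of the threshold and 12 no longer passed it (6 of these without the mean-variance trend). The number of members called lower was 6, and it was 0 without the trend, 5 with a mean of at least 5 CPM, where Ifi205 was not tested, and 4 with TPM values and in DESeq2. It was 1 of 2 without the members that share over 20% of their protein-coding stretches, which leaves Ifi203, lower, and Aim2. Counted over all transcripts, Ifi205 shares 18.1% and would stay as well. Leaving out each library gave 5 to 6, with Pyhin1 lost without Con replicate 1 or Fat replicate 2. The lone library of a group is then assumed to vary like the others. For all genes, 624 lower and 498 higher calls became 366 and 425 with TPM values, 12 and 19 without the trend, and 313 to 612 and 216 to 519 with a library left out, lowest for both without Fat replicate 2 (313 and 216). Without Con replicate 1, 334 genes were lower. Deviations of libraries with the same number correlated at 0.20 over genes, but nothing in the labels ties them beyond the number. With the replicate block, 1242 genes were lower and 1278 higher in limma, and 1394 and 1382 in edgeR, and the members called lower were 6 in each. The log2 ratio of the members' summed CPM, -0.89, stayed between -1.16 and -0.65 with a library left out, and that of Ifi205 to the other members, -1.89, between -2.23 and -1.60. With a pseudocount of 1 CPM, the log2 fold change of Ifi205 was -1.29 in place of -2.45. Depth limits Ifi205, with 9 reads in Fat replicate 2, and BC094916. The alternative without Ifi205, and those for its ratio, were chosen after seeing the data. The cause of these differences was not tested.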
